A study of Homo sapiens with 12 samples.

Results

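The high mobility group (HMG) proteins are small, abundant nonhistone proteins of chromatin, and their 10 canonical genes were followed here: HMGA1, HMGA2, HMGB1, HMGB2, HMGB3, HMGN1, HMGN2, HMGN3, HMGN4 and HMGN5. They were chosen by gene symbol among the 28008 genes of each count table, and all 10 passed the filter on low counts in both cell lines. RNA-seq had been performed on QGP-1 and BON-1, established lines of human pancreatic neuroendocrine tumors (pNETs), each transduced with tet-MUC1shRNA, a doxycycline-inducible hairpin against MUC1. Cells of each line were treated for 7 days with vehicle (DMSO) or with 500 ng/ml doxycycline (DOX), in 3 libraries per group, 4 groups and 12 libraries in all. All 4 groups carry the tet-MUC1shRNA vector and were selected in puromycin, and no RNA-seq library with a control hairpin was analysed here, so DOX itself and the loss of MUC1 cannot be told apart. Each line was grown in a medium of its own. The labels describe cells cultured in triplicate, so p-values measure the spread between cultures of 1 transduced line.

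HMG proteins fall into 3 families that bind DNA or nucleosomes in different ways. HMGA proteins insert AT-hooks into the minor groove of AT-rich DNA, are abundant in embryonic and malignant cells and are low in most adult tissues. HMGB proteins carry HMG boxes, which bend DNA, and HMGB1 is also released from damaged cells as an alarm signal. HMGN proteins bind the nucleosome core particle through a nucleosome-binding domain and compete there with linker histone H1.

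Total counts per library ranged from 38224144 to 50525926 for QGP-1 and from 15981954 to 28484324 for BON-1. Levels are given as CPM, the counts of a gene per 1000000 counts of its library after TMM scaling of the totals. MUC1, the target of the hairpin, had 5.65 to 7.19 CPM in QGP-1 cells with vehicle and 0.705 to 1.04 with DOX. In BON-1 cells MUC1 had 15.6 to 20.7 CPM with vehicle and 1.48 to 3.97 with DOX. The log2 fold change of MUC1 was -2.91 (standard error (SE) 0.23, adjusted p = 8.24e-07) in QGP-1 and -2.79 (SE 0.22, adjusted p = 6.51e-11) in BON-1. Of 8 neuroendocrine marker genes, NCAM1 was near 0 in BON-1 cells (at most 0.107 CPM) and the other 7 were detected in both lines. Among markers of other cell types, the leukocyte genes PTPRC and CD3E had at most 0.248 and 0.0431 CPM, whereas CD68, a gene of macrophage lysosomes, had 0.565 to 1.78 CPM in QGP-1 and 22.7 to 50.7 in BON-1. The endothelial genes PECAM1, VWF and CDH5 reached 0.907, 0.743 and 0.167 CPM. Of the fibroblast genes, COL1A1 had 0.977 to 3.27 CPM in QGP-1 and at most 0.372 in BON-1, and COL1A2, PDGFRB and THY1 had at most 0.237.

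HMGA2 is the best known target of the let-7 microRNAs, and its transcript carries several matches to their seed. The seed is shown in capitals in the mature sequences from RefSeq (GRCh38.p14):
hsa-let-7a-5p: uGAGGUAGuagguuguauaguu
hsa-let-7g-5p: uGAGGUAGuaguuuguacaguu
hsa-miR-98-5p: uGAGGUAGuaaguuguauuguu
In all, 11 mature human microRNAs in the table carried this seed at bases 2 to 8. Its complement, CTACCTC, was found 4 times in the 3′ untranslated region (2999 bases) of the canonical HMGA2 transcript in GENCODE v44, all on the plus strand of chromosome 12 in GRCh38. The sites are given with the match in capitals, because HMGA2 was the member that differed most between the lines:
chr12:65963299-65963320: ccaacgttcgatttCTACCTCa
chr12:65964534-65964555: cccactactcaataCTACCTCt
chr12:65964946-65964967: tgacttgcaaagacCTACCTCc
chr12:65965799-65965820: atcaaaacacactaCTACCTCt
HMGA1 had 1 such match and the other 8 members had 0. Of 19550 canonical 3′ untranslated regions, 9.76% held at least 1 match and 12 held 4 or more. The microRNAs themselves were not measured in these libraries.

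The members' promoters were shown for 4 genes that were lower with DOX: HMGA1 and HMGB3 in both lines, and HMGN1 and HMGN5 in BON-1. RefSeq windows of 300 bases (250 before the start and 50 after it, GRCh38.p14) were on hand for 8 members, 12 windows in all. The motifs were searched on both strands, and capitals mark matches to CCAAT, the box bound by the trimer NF-Y, to the GC box GGGCGG bound by SP1, or to the E-box CACGTG bound by MYC and MAX. E2F-type octamers (TTTCCCGC, TTTGGCGC, TTTCGCGC, TTTGCCGC) would be in capitals too, and adjoining matches run together.
HMGA1, chr6:34236623-34236922, plus strand: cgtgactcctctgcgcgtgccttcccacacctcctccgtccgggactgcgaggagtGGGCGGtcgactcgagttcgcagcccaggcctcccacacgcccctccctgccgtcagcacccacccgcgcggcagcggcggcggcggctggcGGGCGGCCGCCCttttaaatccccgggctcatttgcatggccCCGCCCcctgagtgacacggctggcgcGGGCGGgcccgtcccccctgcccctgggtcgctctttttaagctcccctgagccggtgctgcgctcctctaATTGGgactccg
HMGB3, chrX:150983085-150983384, plus strand: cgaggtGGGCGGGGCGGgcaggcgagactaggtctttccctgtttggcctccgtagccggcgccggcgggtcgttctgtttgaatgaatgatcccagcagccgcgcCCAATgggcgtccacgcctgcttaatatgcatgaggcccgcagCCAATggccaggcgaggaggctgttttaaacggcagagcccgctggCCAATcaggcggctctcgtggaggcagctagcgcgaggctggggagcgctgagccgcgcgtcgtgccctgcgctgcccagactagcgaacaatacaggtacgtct
HMGN1, chr21:39349039-39349338, minus strand: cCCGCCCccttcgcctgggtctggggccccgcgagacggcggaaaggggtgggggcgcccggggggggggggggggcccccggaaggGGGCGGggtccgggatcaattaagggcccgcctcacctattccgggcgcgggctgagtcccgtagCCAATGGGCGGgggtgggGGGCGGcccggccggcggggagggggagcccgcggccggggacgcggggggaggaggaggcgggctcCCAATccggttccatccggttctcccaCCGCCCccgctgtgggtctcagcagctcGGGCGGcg
HMGN5, chrX:81201864-81202163, minus strand: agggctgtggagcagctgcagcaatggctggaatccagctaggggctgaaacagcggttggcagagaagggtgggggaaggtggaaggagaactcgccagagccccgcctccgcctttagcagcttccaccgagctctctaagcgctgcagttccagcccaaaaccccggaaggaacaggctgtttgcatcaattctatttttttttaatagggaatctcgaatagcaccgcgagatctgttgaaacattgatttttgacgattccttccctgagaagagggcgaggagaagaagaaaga
The CCAAT box occurred in 8 of the 12 windows, against 34.6% of 35116 RefSeq windows of the same length. The HMGB3 window shown held 3 copies, at -144, -101 and -55 from the start. HMGA1 and HMGB3 each had another window that is not shown. That of HMGB3 (chrX:150984141-150984440) held no CCAAT box and 11 GC boxes. That of HMGA1 (chr6:34238541-34238840) held 1 CCAAT box and no GC box. The GC box also occurred in 8 windows, against 45.0% of all windows, and the HMGN5 window held neither. None of the 12 windows held an E2F-type octamer, which 3.31% of all windows did. At so low a share, its absence from 12 windows is uninformative. The paper lists HMGA1 and HMGB3 among the E2F target genes that were lower in both lines. The E-box occurred in the HMGN2 window, where it overlapped a GC box (CCGCCC at -45, CACGTG at -40), against 7.26% of all windows. Windows of HMGA2 and HMGB2 were not used here. These matches describe the letters of the windows and do not show that a factor binds.

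In QGP-1 cells 2 of the 10 members were lower with DOX, HMGA1 and HMGB3, both of which were higher on the scale of the deposited TPM described further on, and none was called higher by edgeR. Over all 15089 genes tested in QGP-1, 17.7% were called lower and 17.3% higher by edgeR at an adjusted p below 0.05. In BON-1 cells 6 of the 10 members were lower, HMGA1, HMGA2, HMGB2, HMGB3, HMGN1 and HMGN5, and none was higher, where 18.3% of 14625 genes were called lower and 17.0% higher. The median log2 fold change of the members was -0.08 in QGP-1 and -0.24 in BON-1, beside -0.01 over all genes tested in each line. By edgeR, HMGA1 and HMGB3 were called lower in both lines, and 4 members in neither (HMGB1, HMGN2, HMGN3 and HMGN4). Each of these 4 was called in some of the alternatives given with them. In QGP-1, HMGB1, HMGN2 and HMGN4 were called higher in 3 of 10 alternatives, all on TPM, where the median of all genes also moved up. The study had singled out HMGA1 and HMGB3 on these same libraries, so their direction is not independent evidence. The paper also reports qRT-PCR of both transcripts in each line, relative to vehicle, which was not re-analysed here.

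**Figure D1:**
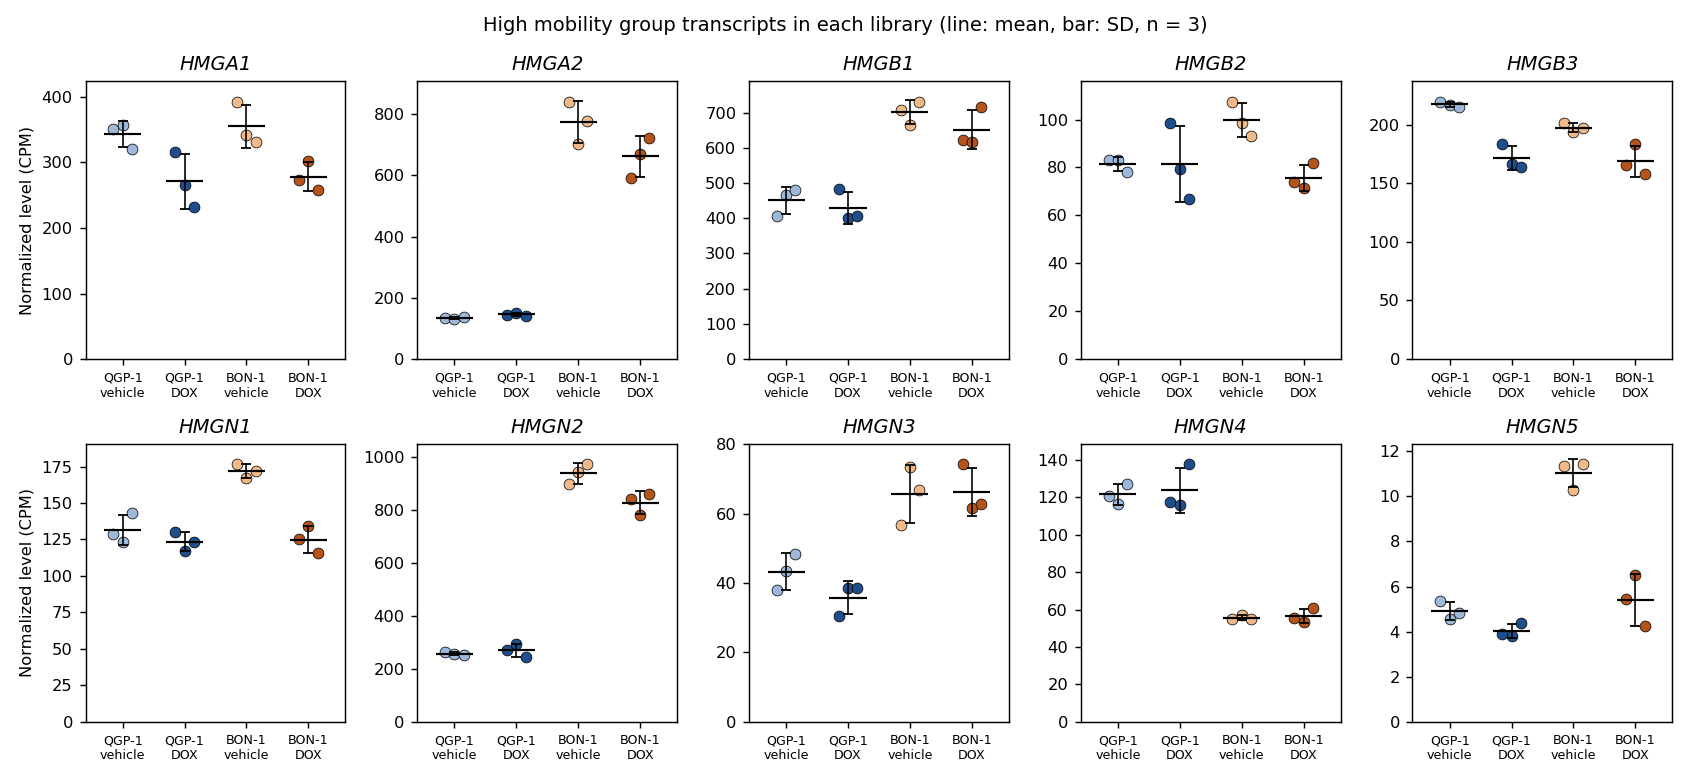
Level of each member in every library, in CPM scaled over all 12 libraries (vertical axes start at 0), for vehicle and DOX in QGP-1 (blue) and BON-1 (orange). Points are libraries, lines the mean and bars the SD of 3 libraries. HMGA2 lay between 131 and 152 CPM in QGP-1 and between 592 and 841 in BON-1, and HMGN5 with DOX in BON-1 (4.23 to 6.52 CPM) lay below all 3 vehicle libraries.

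HMGA1, an architectural factor that helps activators assemble on enhancers, had 351, 358 and 320 CPM in the 3 QGP-1 libraries with vehicle and 316, 265 and 232 with DOX. The groups did not overlap, although the highest DOX library came within a few CPM of the lowest vehicle library. The log2 fold change was -0.34 (SE 0.10, adjusted p = 0.0131 by edgeR), a fall of 20.9%. In BON-1 cells HMGA1 had 393, 342 and 332 CPM with vehicle and 273, 303 and 259 with DOX, again without overlap. There the log2 fold change was -0.36 (SE 0.08, adjusted p = 0.000839 by edgeR). The difference between the lines was -0.02 (SE 0.13, adjusted p = 0.981). Without 1 library of QGP-1 the call held in 3 of 6 fits and was lost without DOX replicate 3, vehicle replicate 1 or vehicle replicate 2 (log2 fold changes -0.45 to -0.24), whereas in BON-1 it held in all 6.

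HMGA2, the other AT-hook protein and the member most tied to early development, moved differently in each line. In QGP-1 cells it had 133, 131 and 137 CPM with vehicle and 145, 152 and 141 with DOX, so the DOX libraries lay above the vehicle libraries by a small margin. The log2 fold change of 0.13 (SE 0.06) did not pass the test (adjusted p = 0.144 by edgeR). In BON-1 cells HMGA2 had 841, 703 and 777 CPM with vehicle and 592, 669 and 723 with DOX, and the highest DOX library exceeded the lowest vehicle library. It was called lower there, with a log2 fold change of -0.24 (SE 0.09, adjusted p = 0.0311 by edgeR). The call held in 2 of 6 fits that left out 1 library and was lost without DOX replicate 1 or 2 or vehicle replicate 1 or 3. The difference between the lines was -0.35 (SE 0.11, adjusted p = 0.0357 by edgeR). It was called in 7 of 12 fits that left out 1 library and was lost without BON-1 DOX replicate 1, BON-1 vehicle replicate 1, QGP-1 DOX replicate 2 or QGP-1 vehicle replicate 1 or 2, as well as with the replicate number as a block (adjusted p = 0.0551). In that test 3 of the 10 members were called, all lower in BON-1 relative to QGP-1, where 7.92% of 16598 genes were called lower and 8.80% higher.

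HMGB1, the most abundant of the HMGB genes, had 407, 467 and 480 CPM in QGP-1 cells with vehicle and 483, 401 and 406 with DOX. In BON-1 cells it had 709, 665 and 732 CPM with vehicle and 621, 618 and 715 with DOX. The groups overlapped in both lines, and the log2 fold changes were -0.07 (SE 0.09, adjusted p = 0.573) and -0.12 (SE 0.08, adjusted p = 0.270) by edgeR. HMGB1 was called higher in QGP-1 in 3 of 10 alternatives, all on TPM, and in none in BON-1.

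HMGB2 is known to rise in dividing cells. In QGP-1 cells it had 83.0, 83.2 and 78.0 CPM with vehicle and 98.5, 79.2 and 66.9 with DOX, and the DOX libraries spread to both sides of the vehicle libraries (log2 fold change 0.00, SE 0.11, adjusted p = 0.983 by edgeR). In BON-1 cells it had 108, 98.8 and 93.2 CPM with vehicle and 74.1, 71.3 and 81.7 with DOX, without overlap. There it was lower, with a log2 fold change of -0.41 (SE 0.08, adjusted p = 0.000266 by edgeR), and remained so in all 6 fits that left out 1 library. The difference between the lines was -0.40 (SE 0.15) and missed the threshold by edgeR (adjusted p = 0.0602), but was called in 5 of 7 alternatives and in 3 of 12 fits that left out 1 library.

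HMGB3, the X-linked HMGB gene linked to self-renewal of stem cells, had 220, 217 and 216 CPM in QGP-1 cells with vehicle and 184, 167 and 164 with DOX. These 3 vehicle libraries were closely alike and all lay above the DOX libraries. The log2 fold change of -0.34 (SE 0.07, adjusted p = 0.00131 by edgeR) was called in all 6 fits that left out 1 library. In BON-1 cells HMGB3 had 202, 194 and 197 CPM with vehicle and 166, 184 and 158 with DOX, with a log2 fold change of -0.23 (SE 0.08, adjusted p = 0.0182 by edgeR). The BON-1 call was lost without DOX replicate 3 or vehicle replicate 3. The difference between the lines was 0.12 (SE 0.10, adjusted p = 0.483).

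HMGN1, which loosens compact chromatin, had 129, 123 and 143 CPM in QGP-1 cells with vehicle and 130, 117 and 124 with DOX, and the groups overlapped (log2 fold change -0.09, SE 0.08, adjusted p = 0.374 by edgeR). In BON-1 cells it had 177, 167 and 172 CPM with vehicle and 125, 134 and 116 with DOX. The BON-1 groups lay well apart, at a log2 fold change of -0.47 (SE 0.08, adjusted p = 2.20e-05 by edgeR). HMGN1 differed in response between the lines by -0.37 (SE 0.11, adjusted p = 0.0211), which held in 11 of 12 fits that left out 1 library and was lost without QGP-1 vehicle replicate 2.

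HMGN5, the X-linked HMGN gene with a long acidic tail, was the least abundant member and had the largest change of the 10 in BON-1. It had 5.35, 4.58 and 4.83 CPM in QGP-1 cells with vehicle and 3.89, 3.82 and 4.36 with DOX, from 147 to 234 reads per library. The QGP-1 groups did not overlap, and the log2 fold change of -0.29 (SE 0.17) did not pass the test (adjusted p = 0.201 by edgeR). In BON-1 cells it had 11.4, 10.3 and 11.4 CPM with vehicle and 5.45, 6.52 and 4.23 with DOX, from 84 to 326 reads. There HMGN5 was 2.05-fold lower with DOX (log2 fold change -1.04, SE 0.18, adjusted p = 5.57e-05 by edgeR), in all 6 fits that left out 1 library. The difference between the lines was -0.74 (SE 0.25, adjusted p = 0.0429 by edgeR), was called in 3 of 12 fits that left out 1 library (BON-1 DOX replicate 2, QGP-1 DOX replicate 1 or QGP-1 vehicle replicate 1) and was lost with the replicate block (adjusted p = 0.0559).

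The remaining 3 HMGN genes passed the test of edgeR in neither line. HMGN2 had 264, 255 and 252 CPM in QGP-1 cells with vehicle and 272, 294 and 246 with DOX. In BON-1 cells it had 897, 944 and 972 CPM with vehicle and 842, 780 and 860 with DOX, without overlap, and the log2 fold change of -0.19 (SE 0.08) missed the threshold (adjusted p = 0.0653 by edgeR). HMGN2 was called lower in BON-1 in 4 of 10 alternatives, among them DESeq2, and in 2 of 6 fits that left out 1 library. In QGP-1 it was called higher in 3 of 10 alternatives, all on TPM. HMGN3 ranged from 30.4 to 48.4 CPM over the QGP-1 libraries and from 56.6 to 74.2 over the BON-1 libraries, with log2 fold changes of -0.28 (SE 0.11, adjusted p = 0.0698) and 0.00 (SE 0.10, adjusted p = 0.988) by edgeR. In QGP-1 HMGN3 was called in 3 of 10 alternatives, lower without a filter and with the replicate block and higher on the deposited TPM, and was lower without vehicle replicate 1. HMGN4, thought to derive from HMGN2 by retroposition, ranged from 116 to 138 CPM in QGP-1 and from 53.4 to 60.6 in BON-1, with log2 fold changes of 0.03 and 0.01. HMGN4 was called higher in QGP-1 in the same 3 alternatives as HMGN2.

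The vehicle and DOX libraries did not overlap for 4 members in QGP-1 (3 lower, HMGA1, HMGB3 and HMGN5, and 1 higher, HMGA2), against 23.2% of all genes tested lower, 23.5% higher and 46.7% in either direction. In BON-1 they did not overlap for 6 members, all lower (HMGA1, HMGB2, HMGB3, HMGN1, HMGN2 and HMGN5), against 23.9% of all genes tested lower, 22.4% higher and 46.3% in either direction. Over the 10 members together the summed level was 1707 to 1760 CPM with vehicle and 1522 to 1738 with DOX in QGP-1, and 3347 to 3548 with vehicle and 2932 to 3070 with DOX in BON-1. The BON-1 sums thus lay apart, and the QGP-1 sums overlapped.

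**Figure D2:**
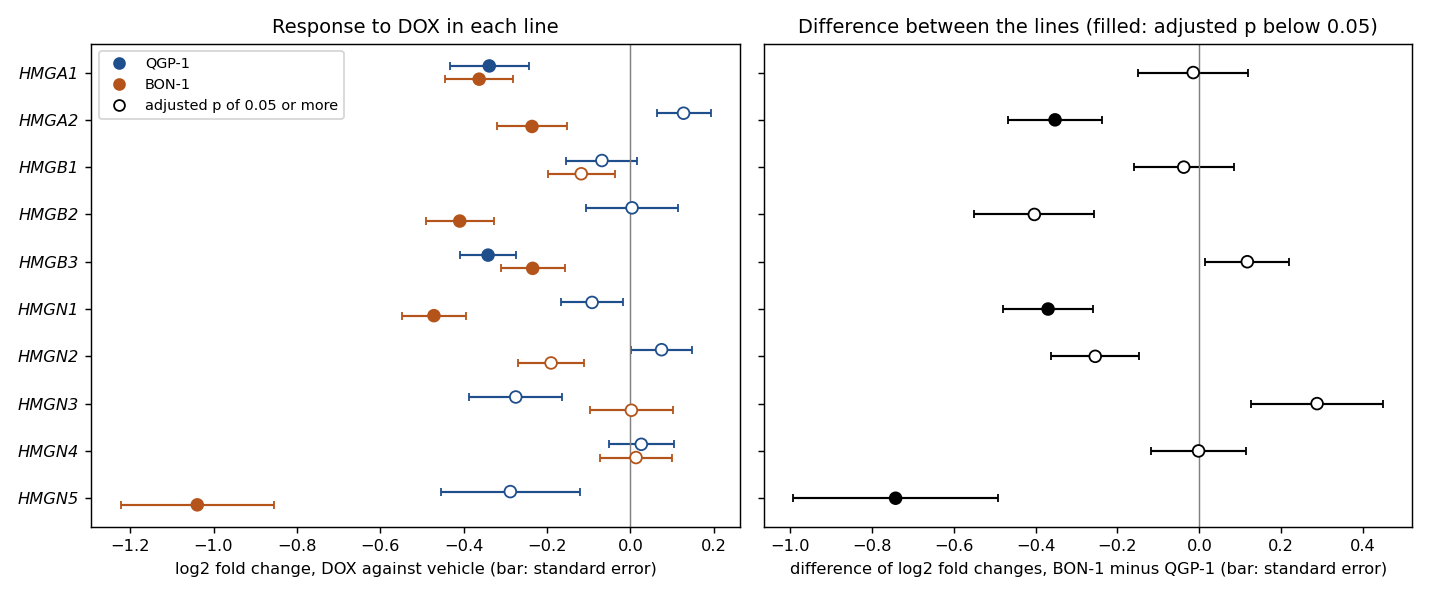
Left, log2 fold change of each member with DOX against vehicle in QGP-1 (blue) and BON-1 (orange). Right, the value in BON-1 minus that in QGP-1. Bars are standard errors from edgeR and open points have an adjusted p of 0.05 or more. HMGA1 and HMGB3 are filled in both lines (in QGP-1 they are above 0 on the scale of the deposited TPM), and HMGA2 (-0.35), HMGN1 (-0.37) and HMGN5 (-0.74) are filled on the right.

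The directions in QGP-1 depend on how the libraries are scaled. The deposited TPM, a measure of transcripts per gene length, moved the median of all genes by 0.59 (log2) between vehicle and DOX in QGP-1 and by -0.31 in BON-1. RN7SK, RN7SL1 and RN7SL2, which are short noncoding RNAs, took 50.9 to 80.3% of the deposited TPM. In QGP-1 they took 78.8 to 80.3% with vehicle and 71.2 to 75.4% with DOX, without overlap. In BON-1 they took 50.9 to 65.6% and 53.4 to 74.3%, which overlapped. On the deposited TPM HMGA1 and HMGB3 in QGP-1 had log2 fold changes of 0.38 and 0.38, or -0.21 and -0.22 relative to that shifted median. After these 3 RNAs were left out and the libraries rescaled, the median still moved by 0.29 in QGP-1, and HMGA1 and HMGB3 had log2 fold changes of -0.02 and -0.02, or -0.31 and -0.31 relative to it. The falls in QGP-1 are therefore falls relative to the median gene, whereas in BON-1 HMGA1, HMGA2, HMGB2, HMGB3, HMGN1 and HMGN5 were below 0 on each scale tried. Fewer of them were called there, 1 on the deposited TPM and 5 on the rescaled TPM, and HMGA2 was called on neither (adjusted p = 0.497 and 0.0821).

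With vehicle, HMGA2, HMGN2, HMGN4 and HMGN5 differed more than 2-fold between the lines. In the fit of all 12 libraries 7 members were higher in BON-1 than in QGP-1, 1 was lower and 2 were not called, where 37.5% of 16598 genes were called higher and 37.5% lower. HMGA2 was 5.79-fold higher in BON-1 (log2 difference 2.53, SE 0.09, adjusted p = 9.24e-19 by edgeR), with 703 to 841 CPM against 131 to 137. HMGN2 was 3.65-fold higher (1.87, SE 0.08, adjusted p = 9.39e-17), and HMGN5 2.24-fold higher (1.17, SE 0.17, adjusted p = 1.43e-06). Smaller differences in the same direction were measured for HMGB1 (0.64), HMGN3 (0.60), HMGN1 (0.39) and HMGB2 (0.30), the last of which was lost without BON-1 vehicle replicate 1. HMGN4 was the exception, at 2.19-fold lower in BON-1 (-1.13, SE 0.08, adjusted p = 6.17e-12). HMGA1 (0.05, SE 0.09, adjusted p = 0.627) and HMGB3 (-0.14, SE 0.07, adjusted p = 0.0872) were not called. Line, medium and sequencing depth cannot be told apart in this comparison.

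Levels of different genes can be compared only per length, for which the deposited TPM was rescaled without the 3 noncoding RNAs. In QGP-1 cells with vehicle HMGA1 led at 274 ± 25.3 TPM (SD, n = 3), followed by HMGN2 at 258 and HMGN1 at 218, with HMGB1 at 149, HMGN4 at 122, HMGB3 and HMGB2 at 101, HMGN3 at 61.6, HMGA2 at 39.0 and HMGN5 at 4.52. The ranges of HMGA1 and HMGN2 overlapped, as did those of HMGB3 and HMGB2, and the other neighbours in this order did not overlap. In BON-1 cells with vehicle HMGN2 stood first at 1206 ± 73.4 TPM, above HMGN1 at 366, HMGA1 at 363, HMGB1 at 298, HMGA2 at 289, HMGB2 at 158, HMGN3 at 120, HMGB3 at 118, HMGN4 at 71.6 and HMGN5 at 12.95. Here HMGN1 and HMGA1, HMGB1 and HMGA2, and HMGN3 and HMGB3 overlapped. HMGN5 was last in all 4 groups. The order depends on the length used, and with exon lengths of GENCODE v44 only 5 members in QGP-1 and 3 in BON-1 kept their rank.

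The makeup of the HMGA and HMGN families per length differed between the lines. HMGA2 made up 12.5% (11.8 to 13.5%) of the HMGA pair in QGP-1 cells with vehicle and 16.6% (14.3 to 18.2%) with DOX, in libraries that did not overlap. In BON-1 cells it made up 44.3% (42.9 to 46.1%) with vehicle and 46.5% (44.2 to 50.6%) with DOX, and these overlapped. HMGB3 made up 28.8% of the HMGB genes in QGP-1 with vehicle and 24.8% with DOX, and 20.5% and 20.3% in BON-1. HMGN2 made up 38.8% of the HMGN genes in QGP-1 and 67.9% in BON-1 with vehicle, and HMGN4 18.3% and 4.03%. These shares depend on the length used. In an alternative chosen after seeing the data, CPM divided by the exon length of GENCODE v44, HMGA2 made up 5.69% of the pair in QGP-1 and 25.2% in BON-1 with vehicle, HMGB3 37.5% and 27.6% of its family, HMGN2 39.9% and 71.8%, and HMGN4 30.2% and 6.83%.

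**Figure D3:**
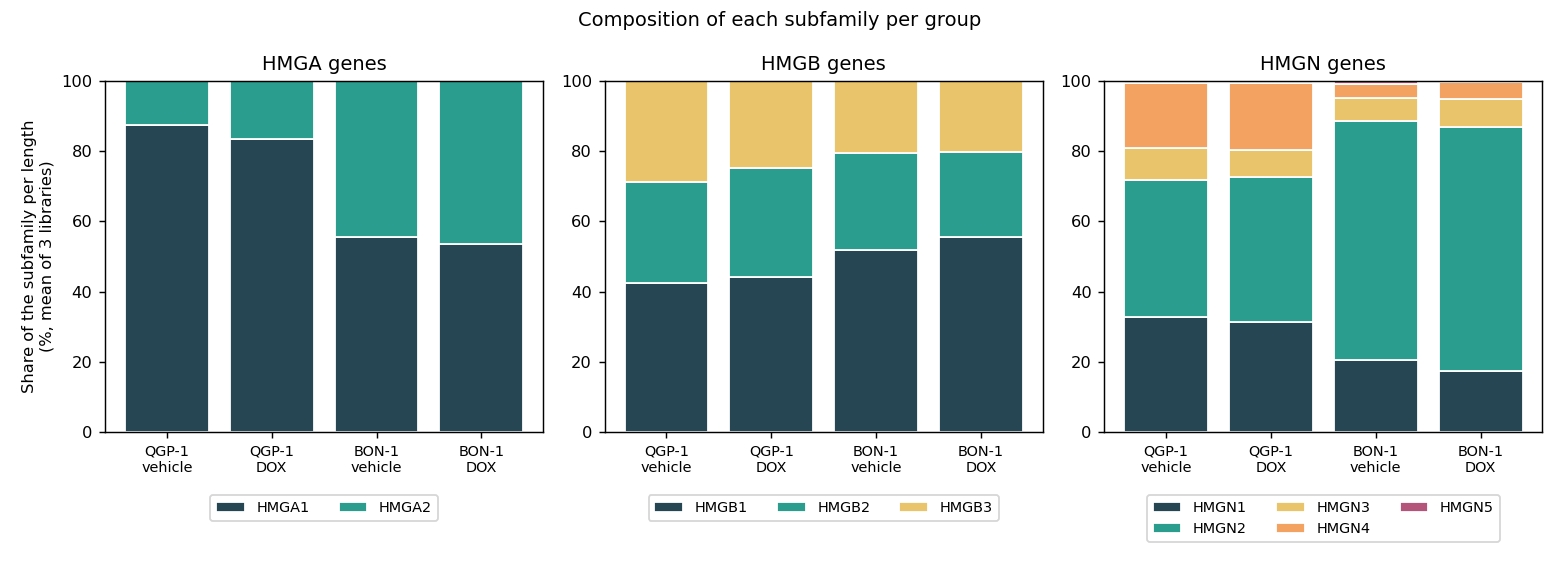
Share of each member in the summed level of its family, per length, as stacked bars from 0 to 100% (mean of 3 libraries) for the 4 groups. The share of HMGA2 in the HMGA pair is 12.5% in QGP-1 and 44.3% in BON-1 with vehicle, and that of HMGN2 among the HMGN genes is 38.8% and 67.9%. With exon lengths of GENCODE v44 the HMGA2 shares are 5.69% and 25.2%.

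Genes that act with HMGA2 in the LIN28 and let-7 axis were followed from a list of 7, because LIN28 proteins block the making of let-7 and the IGF2BP genes encode RNA-binding proteins of embryonic and malignant cells. Of the 6 tested in QGP-1 none was lower and 2 were higher with DOX, and of the 5 tested in BON-1 none was lower and 1 was higher. Among all genes tested, 17.7% were called lower and 17.3% higher in QGP-1, and 18.3% lower and 17.0% higher in BON-1. DICER1, the enzyme that cuts microRNA precursors, was higher in both, by 0.67 (SE 0.08, adjusted p = 2.98e-05) and 0.44 (SE 0.08, adjusted p = 7.31e-05) on the log2 scale by edgeR. The lines themselves differed widely. IGF2BP1 had 1.26 to 1.85 CPM in QGP-1 cells with vehicle and 478 to 549 in BON-1, a log2 difference of 8.31 (SE 0.13, adjusted p = 5.04e-25). IGF2BP2 had 43.1 to 51.3 and 104 to 107 CPM, and IGF2BP3 181 to 196 and 190 to 208 CPM. LIN28B went the other way, with 12.4 to 13.9 CPM in QGP-1 and at most 0.172 CPM (4 reads) in BON-1 with vehicle, and LIN28A had at most 0.0697 CPM with vehicle. HMGA2 and IGF2BP1 were both high in the line that had almost no LIN28B reads. Whether these levels are linked was not tested.

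**Figure D4:**
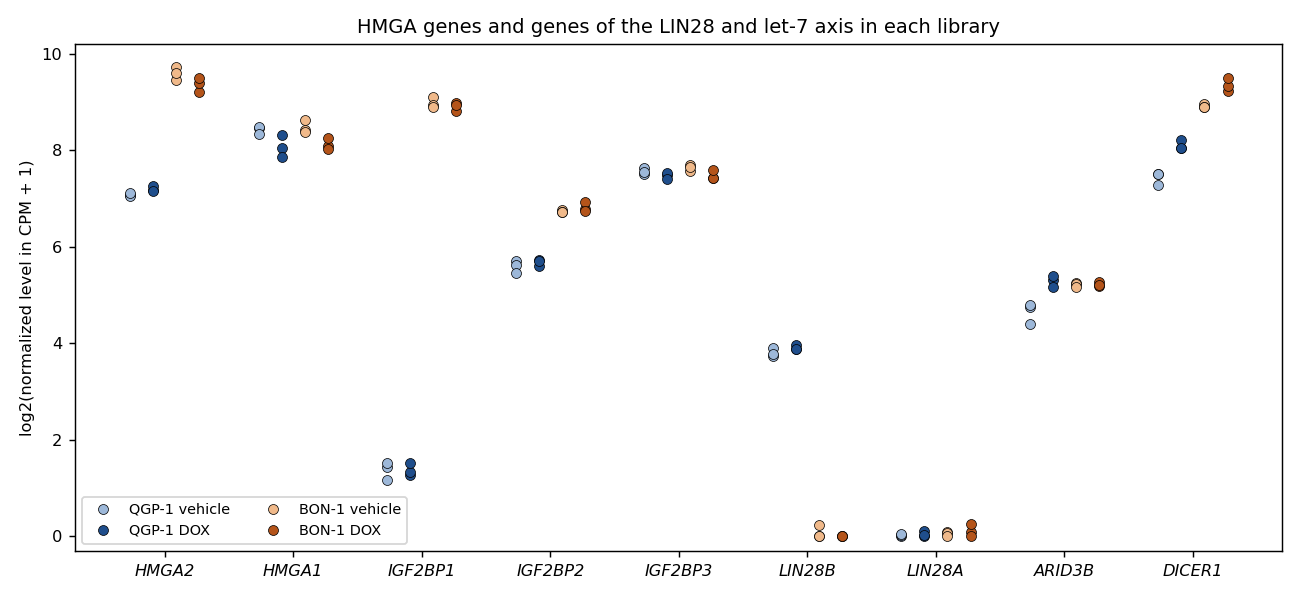
HMGA2, HMGA1 and genes of the LIN28 and let-7 axis in each of the 12 libraries, as log2(CPM + 1), scaled over all libraries. IGF2BP1 lies at 478 to 549 CPM in BON-1 with vehicle and at 1.26 to 1.85 in QGP-1, whereas LIN28B has 12.4 to 13.9 CPM in QGP-1 and at most 0.172 in BON-1.

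Linker histones, with which HMGN proteins compete for nucleosomes, were lower with DOX in 4 of 5 tested genes in QGP-1 (1 higher) and in 5 of 5 in BON-1, with median log2 fold changes of -0.52 and -0.84. Among all genes tested, 17.7% were called lower and 17.3% higher in QGP-1, and 18.3% lower and 17.0% higher in BON-1. HIST1H1E fell by 0.52 and 0.84 on the log2 scale (adjusted p = 0.00104 and 3.13e-09), H1FX by 0.35 and 1.01 (adjusted p = 0.0329 and 6.91e-09) and HIST1H1C by 0.68 and 0.55 (adjusted p = 1.62e-05 and 6.61e-06), all by edgeR. H1F0, the variant of resting cells, was higher in QGP-1 (0.27, SE 0.08) and lower in BON-1 (-0.38, SE 0.08). Other nucleosome partners, a list of 8, had 2 lower and 2 higher in QGP-1 and 5 lower and none higher in BON-1. Among them CENPA, the centromere histone, changed by -0.43 and -0.54, and H2AFZ, a histone variant, by -0.42 and -0.30.

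Proteins that share the HMG box with the HMGB family were tested for 22 genes, of which 5 were lower and 6 higher in QGP-1 and 6 lower and 6 higher in BON-1. The shares over all genes tested were 17.7% lower and 17.3% higher in QGP-1, and 18.3% lower and 17.0% higher in BON-1. HMG20B, a subunit of a histone demethylase complex, changed by -0.46 and -0.51, and KMT2C, a histone methyltransferase, by 0.53 and 0.26. Of 6 partners of HMGB2 in the SET complex, 3 were lower in QGP-1 and 4 in BON-1, with none higher. NME1, a nuclease of that complex, had log2 fold changes of -0.56 and -0.47. A broader list around HMGB1, with receptors and partners of the released protein but also XPO1 and PARP1, gave 2 lower and 2 higher of 7 in QGP-1 and 1 lower and 2 higher of 9 in BON-1. PARP1 was among those higher in QGP-1 (0.29, SE 0.07, adjusted p = 0.00571 by edgeR). CXCR4, the chemokine receptor that binds HMGB1 joined to CXCL12, had log2 fold changes of -1.37 (SE 0.23) and -1.33 (SE 0.30), and MYD88, the adaptor of Toll-like receptors, 0.57 in both. CXCL12 went the other way in BON-1, higher with DOX by 1.18 (SE 0.09, adjusted p = 2.75e-11 by edgeR). In QGP-1 it had at most 13 reads per library and was not tested. CXCR4 was low, at 147 to 294 reads per library with vehicle and 72 to 87 with DOX in QGP-1. In BON-1 it had 68 to 113 reads with vehicle and 25 to 37 with DOX.

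A list of 16 proliferation genes was read beside the HMG genes, because HMGB2 is among the transcripts that vary with the cell cycle. In QGP-1, 6 were lower and 1 was higher with DOX (median log2 fold change -0.14), against 17.7% of all genes tested lower and 17.3% higher. The summed level of the list was 3774 to 4049 CPM with vehicle and 3629 to 3985 with DOX, which overlapped. In BON-1, 8 were lower and none was higher (median -0.25), against 18.3% of all genes tested lower and 17.0% higher. The summed level there was 6135 to 6249 CPM with vehicle and 5469 to 5618 with DOX, which did not overlap. The part of this difference in the HMG results was not tested, and fewer cycling cells and less RNA per cell cannot be told apart in bulk libraries.

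Genes whose levels most resembled HMGA1 or HMGB3 were read from log2 CPM centred within each line, over 12 libraries and the 6040 genes whose mean log2 CPM reached 5. For HMGA1 they were SLC1A5 (Pearson r = 0.97), a glutamine transporter, FKBP10 (0.96), a collagen chaperone, and TUBB (0.96), a tubulin. For HMGB3 they were AAAS, NUDT5 and EEF1A2 (each 0.97). The points share their libraries and the difference between vehicle and DOX, so these values are a description.

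The loci are given from GENCODE v44 on GRCh38. HMGA1 lies at chr6:34236873-34246231 (plus strand), HMGA2 at chr12:65824460-65966291 (plus), HMGB1 at chr13:30456704-30617597 (minus), HMGB2 at chr4:173331376-173334432 (minus), HMGB3 at chrX:150980509-150990771 (plus), HMGN1 at chr21:39342315-39349647 (minus), HMGN2 at chr1:26472440-26476642 (plus), HMGN3 at chr6:79201245-79234689 (minus), HMGN4 at chr6:26538366-26546933 (plus) and HMGN5 at chrX:81113699-81201913 (minus). Processed copies are numerous for some members, with 48 named pseudogenes for HMGB1, 38 for HMGN2, 32 for HMGN1, 29 for HMGB3 and 8 for HMGA1. Values of these members are uncertain to the extent that reads matched such copies, and how these were counted is not given in the sources used here. Only 3 pseudogene rows of the members are in the tables, and adding their reads left the counts of called members at 2, 6, 8 and 3 in the 4 comparisons. Exons of HMGA2 and HMGN3 overlap antisense genes by 384 and 144 bases, and whether counting used the strand is likewise not given.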

How the data were processed

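RNA-seq of 12 libraries in 4 groups was used. The authors prepared stranded mRNA libraries, aligned the reads with STAR to GRCh38 and deposited, for each line, raw counts per gene and TPM values. The STAR version, the counting program, its use of the strand and its treatment of reads with several matches are not given in the sources used here. The deposited TPM served for levels per length and as an alternative, and 0 per-sample columns were left unused. The depth makes counting error small except for HMGN5, so the spread between libraries sets the precision.

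The quasi-likelihood test of edgeR 4.0.16 was run on the counts in R 4.3.3 (its default filter on low counts, TMM), with Benjamini-Hochberg adjustment over all genes tested and a threshold of 0.05. Each line was fitted on its own 6 libraries, and the lines were compared in a fit of all 12, with the interaction as the test of a difference in response. CPM values printed here are scaled by TMM over all 12 libraries, except MUC1 and the summed levels of the members and proliferation genes, scaled within each line. DESeq2 1.42.0, library size, other filters, pseudogene rows, a replicate block and limma 3.58.1 on log2(TPM + 1) were alternatives. The code was tested on simulated counts. Replicates of each group differed by more than sampling noise (chi-square per gene 5.72 to 28.2).

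The members and the gene lists were chosen with earlier results of these data known. All 10 members are named. From each related list, up to 3 genes called the same way in both lines with the greatest mean change were to be named. Of these, HMGXB3 (0.34 and 0.34), APEX1 (-0.23 and -0.23) and MCM6 (-0.56 and -0.35) are given only here, as log2 fold changes in QGP-1 and BON-1. PARP1 and CXCL12 were named outside this rule. The levels of IGF2BP and LIN28 genes, of H1F0, HIST1H1B, HIST1H1D and HBP1 were added after their values were seen.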

Additional observations from a re-analysis of the deposited data

Results flagged for a closer look

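The response to DOX differed between the lines for 3 members by the interaction test of edgeR over 12 libraries. For HMGA2 the response in BON-1 minus that in QGP-1 was -0.35 on the log2 scale (adjusted p = 0.0357), with all 3 QGP-1 DOX libraries above their vehicle libraries. It was called in 7 of 12 fits that left out 1 library and lost with a replicate block (adjusted p = 0.0551). For HMGN1 the difference was -0.37 (adjusted p = 0.0211), called in 11 of those 12 fits and with the block. For HMGN5 it was -0.74 (adjusted p = 0.0429), at 84 to 326 reads per BON-1 library, called in 3 of 12 fits that left out 1 library and lost with the block (adjusted p = 0.0559).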

How the results depend on the processing

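With the replicate number as a block, 3 members were called in QGP-1, 6 in BON-1 and 1 (HMGN1) in the test between the lines. The numbers do not pair the samples: same-numbered vehicle and DOX libraries correlated between -0.04 and 0.07 in their deviations, and not every library correlated best with its own number. The block changes the direction of HMGB2 in QGP-1 (-0.014). No block was fitted for the difference between vehicle-treated lines, since a block within line cannot be fitted there.

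With limma on the deposited TPM 9 members were called in QGP-1, all higher, and 1 in BON-1. On that scale the median of all genes moved by 0.59 in QGP-1 and by -0.31 in BON-1. These counts thus hold a shift of all genes and are not a result about the members alone. With rescaled TPM, at a pseudocount of 1 or 0.1, 5 were called in QGP-1, all higher (HMGA2, HMGB1, HMGN1, HMGN2 and HMGN4). HMGA1 and HMGB3, the 2 called lower by edgeR, were not called there. At a pseudocount of 1, 7 members differed in response. With that pseudocount the median of all genes moved by 0.29 in QGP-1 and was -0.33 for the difference in response. With library size in place of TMM 5 differed in response. With an absolute log2 fold change of at least 1 the counts were 0 in QGP-1, 1 in BON-1, 4 between vehicle-treated lines and 0 in response. Leaving out 1 library gave 1 to 2 members in QGP-1, 4 to 6 in BON-1, 7 to 9 between vehicle-treated lines and 0 to 3 in response. With exon lengths of the annotation 5 of 10 members kept their rank in QGP-1 and 3 in BON-1. DESeq2 called 2, 7, 8 and 4. The cause of these changes was not tested.

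Log2 fold changes that changed sign in QGP-1 on the deposited TPM were HMGA1 0.38, HMGB1 0.65, HMGB3 0.38, HMGN1 0.64, HMGN3 0.44 and HMGN5 0.23. On rescaled TPM with a pseudocount of 1 or of 0.1 they were HMGB1 0.252 and 0.254, HMGN1 0.232 and 0.233, HMGN3 0.0486 and 0.0491, and HMGN5 0.0283 and 0.0342. In BON-1, HMGN3 and HMGN4, both near 0, became -0.0469 and -0.0326 with library size, -0.0185 and -0.00597 without a filter, -0.0141 and -0.00119 with at least 10 counts in every library, and -0.35 and -0.34 on deposited TPM. On rescaled TPM with a pseudocount of 1 or of 0.1 HMGN3 became -0.0355 and -0.0357 and HMGN4 -0.0286 and -0.0290. On rescaled TPM HMGB3 between vehicle-treated lines became 0.22, and the difference in response became -0.26 for HMGB3 and -0.0841 for HMGN3.

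Leaving out 1 library changed the sign of 8 values, none of them called. Their ranges were -0.147 to 0.126 for HMGB2 and -0.0597 to 0.0734 for HMGN4 in QGP-1, -0.106 to 0.0830 for HMGN3 and -0.0486 to 0.0458 for HMGN4 in BON-1, and -0.0300 to 0.0857 for HMGA1 between vehicle-treated lines. In the difference in response they were -0.121 to 0.0540 for HMGA1, -0.118 to 0.0293 for HMGB1 and -0.0940 to 0.0799 for HMGN4.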

Other observations

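HBP1, an HMG-box repressor of cell cycle genes that was picked out after its values were seen, moved in opposite directions. It had 108 to 129 CPM in QGP-1 cells with vehicle and 75.2 to 84.4 with DOX, and 23.6 to 28.9 CPM in BON-1 with vehicle and 32.9 to 39.5 with DOX. The log2 fold changes were -0.54 (SE 0.08) and 0.52 (SE 0.11), and their difference was 1.07 (SE 0.14, adjusted p = 7.94e-06 by edgeR). Among linker histones, HIST1H1B was read almost only in QGP-1 and HIST1H1D only in BON-1. HIST1H1B had 1150 to 1434 CPM in QGP-1 with vehicle and at most 0.267 in BON-1, whereas HIST1H1D had 236 to 255 CPM in BON-1 with vehicle and no read in any QGP-1 library. HIST1H1C, HIST1H1E, H1F0 and H1FX were read in both lines. HIST1H1C, for example, had 802 to 973 CPM in QGP-1 and 534 to 601 in BON-1 with vehicle.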
